A study of Rattus norvegicus with 4 samples.

Results

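The 10 genes described here carry the signals of bone morphogenetic proteins (BMPs), Nodal and activins from the ligand to the nucleus: the ligand genes *Bmp4*, *Nodal* and *Inhbb*, the Smad genes *Smad1*, *Smad5*, *Smad2*, *Smad3* and *Smad4*, and the target genes *Id1* and *Id3*. They were chosen by gene symbol from the 34773 genes of the table, and all 10 symbols were found once. In this pathway a dimeric ligand brings type I and type II receptor kinases together, and the type I receptor phosphorylates a receptor-regulated Smad (R-Smad). BMP receptors act on SMAD1 and SMAD5, Nodal, activin and TGF-beta receptors act on SMAD2 and SMAD3, and both branches share SMAD4, with which the phosphorylated Smads enter the nucleus. *Id1* and *Id3* are direct targets of the BMP branch, and ID proteins restrain basic helix-loop-helix factors. In mouse ESCs BMP and LIF together sustain self-renewal, and Nodal signals act on the exit from the naive state. These assays counted transcripts and did not measure Smad phosphorylation.

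RNA was sequenced from rat embryonic stem cells (ESCs) of the line DA-5-3 with a *Rex1*-GFP reporter, labelled WT, and from 3 Thop1-KO subclones (#1, #2 and #3) derived from it. *Thop1* encodes a zinc metallopeptidase that cleaves short peptides, and the comparison asks how the transcriptome differs when it is disrupted in undifferentiated cells. The rat ESCs were grown on feeder cells in dual-inhibitor medium with LIF, that is with the MEK inhibitor PD0325901 and the GSK3 inhibitor CHIR99021, and the knockout cells were made with Cas9 and guide RNAs under puromycin selection, after which colonies were picked. WT has 1 library and each subclone 1 library, so a difference between genotypes cannot be told apart from a difference between the single control culture or library and the others, and the sources used here do not say whether the control went through transfection, selection and subcloning. The design text calls the cells haploid whereas the paper describes DA-5-3 as diploid. A subclone is 1 picked clone. The p-values and standard errors rest on the spread among the 3 subclones, since the 1 control library gives no estimate of the spread within WT.

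Total counts per library lay between 15405499 and 17936544. *Thop1* was at 110 CPM (the count divided by the library's TMM-scaled size) in #1, 92.5 in #2, 149 in #3 and 370 in WT, so the subclones held 25% to 40.3% of the control's transcripts, and it was lower in Thop1-KO (log2 fold change -1.66, standard error 0.29, adjusted p = 0.0187). Of 15028 genes tested, 2072 were called between the genotypes at an adjusted p-value under 0.05 (quasi-likelihood test of edgeR, adjusted by the Benjamini-Hochberg method). With 1 library against 3, the smallest p that an exact permutation test can give (one-sided) is 0.25, and the adjusted p-values therefore depend on the modelled variance. Naive ESC markers summed to 6242 to 7604 CPM in the 4 libraries (9 of 10 listed markers were in the table), and most of that sum was *Pou5f1*, at 3889 to 4842 CPM. Of the 9, 3 were called and higher in Thop1-KO: *Esrrb* (330, 286 and 328 CPM in #1, #2 and #3 against 15.9 in WT), *Tfcp2l1* (231, 254 and 280 against 34.4) and *Fgf4* (113, 90.4 and 112 against 10.2). That is 33.3%, beside 13.8% of all genes tested. The log2 fold change was positive in 6 of the 9 and negative in 3: *Pou5f1* (-0.09), *Nanog* (-0.21) and *Klf4* (-0.33). In these 3 genes the control lay inside the range of the subclones. Markers of fibroblasts, the usual feeder cell, summed to 439 CPM in #1, 858 in #2, 568 in #3 and 258 in WT; 11 of 12 were in the table, most of the sum was collagen, and *Dcn*, *Lum* and *Thy1* were at 0 counts in every library. In #1, #2, #3 and WT, primitive endoderm markers summed to 1222, 1367, 1784 and 851 CPM, nearly all *Lama1*. Mesoderm markers summed to 23.3, 13.6, 24.8 and 10.6, nearly all *Gsc* and *Eomes*. Both sums were lowest in WT, but single markers went the other way. *Tbxt* had 0 counts in every subclone and 10 in WT, and *Gata4* had 3, 0 and 3 counts against 17. Trophoblast markers summed to 3.58, 36.1, 5.01 and 24.3 CPM, and the neural ones to 0.358, 0.735, 0.167 and 8.48, which is *Nes*, lower in Thop1-KO (adjusted p = 0.0147). The part of these marker differences in the results was not tested. In bulk RNA, fewer cells that express a gene and less RNA per cell cannot be told apart.

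Among the 10 genes, *Smad4* was the single one called: it rose 3.42-fold in Thop1-KO. *Inhbb* was 13.3-fold higher and *Id3* was at 0.338 times the control, neither with an adjusted p-value under 0.05, and *Nodal* and *Id1* in the control lay inside the range of the subclones. The 1 gene called is 10% of the set, beside 13.8% of all genes tested, and the 1 gene called higher stands beside 8.62% of all genes called higher. The control lay below every subclone in 6 of the 10 genes and above every subclone in 2, together 80.0%, where the control lay outside the range of the subclones in 75.7% of all genes. The log2 fold change was positive in 7 of the 10 with a median of 0.54, while 51.9% of all genes tested had a positive value and their median was 0.06. The unadjusted p-value was under 0.05 for 4 of the 10 genes and for 5110 of all genes tested. DESeq2 called 3 of the 10, namely *Smad4*, *Inhbb* and *Id3*, where it called 21.3% of all genes. The genes were chosen with results of these libraries known, so their directions are not independent evidence.

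**Figure D1:**
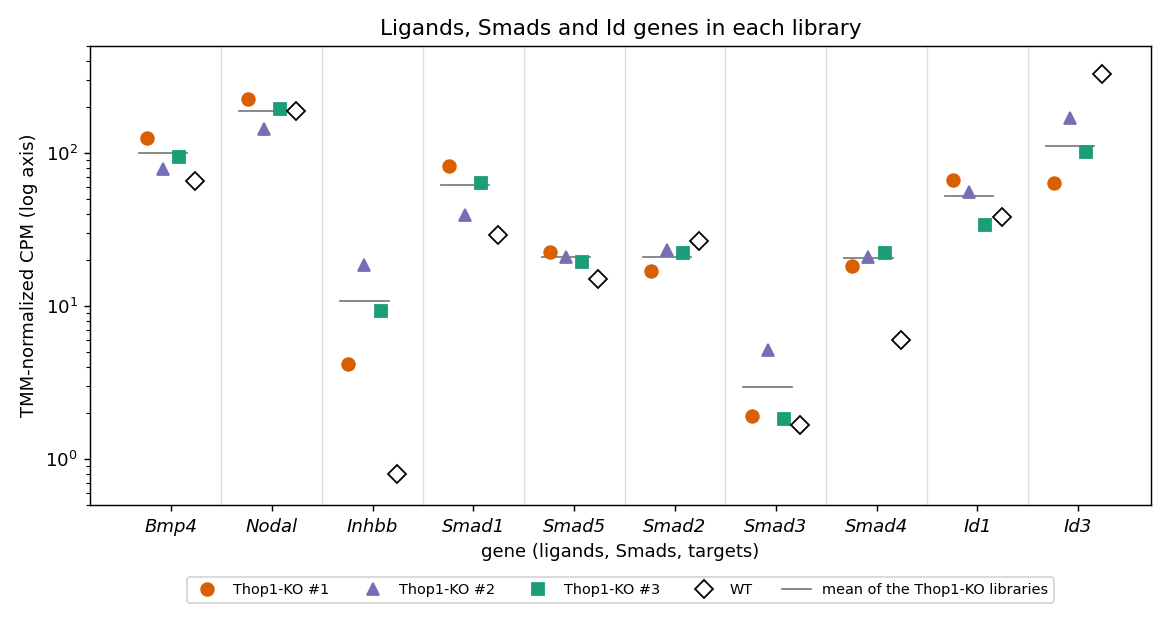
TMM-normalized CPM (log axis) of the 10 genes in each library, with 1 symbol per library and a grey line at the mean of the 3 Thop1-KO libraries. WT (open diamond) lies far below the subclones in *Smad4* (5.99 CPM against 18.3 to 22.2) and *Inhbb* (0.808 against 4.17 to 18.7) and above them in *Id3* (330 against 63.3 to 169).

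None of the 3 ligand genes, at the head of the pathway, was called by edgeR; *Inhbb* had an unadjusted p-value under 0.05 and was called by DESeq2. *Bmp4* (chromosome 15, 20776054 to 20822740, minus strand, protein coding) encodes a BMP that ESCs secrete. Its level was 125 CPM in #1, 79.1 in #2, 94.7 in #3 and 65.7 in WT. Every subclone lay above the control, by between 1.20 and 1.90 times, and #2 lay nearest to it. The log2 fold change was 0.60 (standard error 0.33) and the adjusted p-value 0.237. Without #2 the value was 0.74 with an adjusted p-value of 0.0309. That fit called 37.9% of all genes tested, where the reported fit called 13.8%.

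*Nodal* (chromosome 20, 31035729 to 31044096, plus strand), the ligand that activates SMAD2 and SMAD3 in the early embryo, was at 225 CPM in #1, 143 in #2, 193 in #3 and 188 in WT. The control lay in the middle of the subclones, between #2 and #3. The mean of the subclones was 187 ± 41.7 CPM (SD, n = 3), and the log2 fold change -0.01, with a standard error of 0.30 and an adjusted p-value of 0.993. A p-value of this size does not show that the levels were equal, and the sign of this small value turned in 3 of the 13 alternatives. Counting noise did not set the spread among subclones, since their counts of 3781, 2525 and 3475 differed beyond it by a chi-square test that compares these libraries and not the conditions.

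*Inhbb* (chromosome 13, 35436532 to 35442222, minus strand) encodes the beta B subunit of activin B and of inhibin B, and was also among the genes whose insertions the study displayed from its screen. It had 70 counts in #1, 330 in #2, 168 in #3 and 12 in WT, which is 4.17, 18.7, 9.35 and 0.808 CPM. The 12 counts of the control carry an exact Poisson interval of 6.20 to 21.0 counts, which covers counting error only, so the fold is set by few reads. All 3 subclones lay above the control, but they spread over 4.47 times between themselves, and the ratios to the control were 5.17 in #1, 23.1 in #2 and 11.6 in #3. With that spread the log2 fold change of 3.72 had a standard error of 1.01 and an adjusted p-value of 0.0549. It was 0.00662 without #1, 0.00279 without #2 and 0.0876 without #3, and over all 13 alternatives it lay between 6.69e-05 and 0.257. The fits without #1, #2 and #3 called 13.6%, 37.9% and 3.10% of all genes tested, where the reported fit called 13.8%. *Inhbb* and the fibroblast marker sum had the same order of libraries, with #2 highest, then #3, then #1 and the control lowest. Single markers differed: of the 8 tested, the control lay below every subclone in 6. It lay above them in *Acta2* (2.266, 6.844 and 1.725 CPM in #1, #2 and #3 against 6.998 in WT). In *Col6a1* it lay inside their range (1.073, 1.471 and 1.002 against 1.144). The part of feeder or fibroblast transcripts in the result was not tested.

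The promoter window of *Inhbb* is shown because it held the most matches to the GC-rich motifs of BMP target genes of any single window of the 10 genes, beside the largest difference between genotypes. Windows run from 250 bases before to 50 bases after the start of the RefSeq transcript on GRCr8 (the files' own coordinates come from a build that the sources used here do not name), and all 10 genes matched an entry, with 11 windows. Capitals mark matches, on either strand, to GTCTAGAC (the palindromic Smad element), CAGAC (the Smad-binding element), GGCGCC and GGAGCC (GC-rich BMP elements) and TGTNNATT (the Foxh1 motif). Of 33469 promoter windows of the same length, 0.197% held GTCTAGAC, 50.1% CAGAC, 11% GGCGCC, 27.9% GGAGCC and 12.8% TGTNNATT. The *Inhbb* window (chr13:33089324-33089623, minus strand) had 2 matches to GGCGCC, at bases 48 to 53 and 225 to 230, and 2 to GGAGCC, at bases 178 to 183 and 185 to 190. Its GC content was 84.3%, where the median of all windows was 51.7%.
Inhbb promoter: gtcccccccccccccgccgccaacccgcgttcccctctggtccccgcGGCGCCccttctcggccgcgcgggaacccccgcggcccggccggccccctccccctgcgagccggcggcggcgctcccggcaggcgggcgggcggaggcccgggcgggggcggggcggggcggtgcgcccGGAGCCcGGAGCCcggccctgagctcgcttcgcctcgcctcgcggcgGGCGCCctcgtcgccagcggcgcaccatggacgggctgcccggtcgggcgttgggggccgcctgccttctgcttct

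Among the ligands the balance of levels, in FPKM (a level per gene length and per sequencing depth), differed between the libraries. *Nodal* stood above *Bmp4* in each of them, by a ratio of 1.91 in #1, 1.92 in #2, 2.17 in #3 and 3.03 in WT. The 3 subclones lay close together in this ratio and the control lay above them. *Bmp4* exceeded *Inhbb* 43.3 times in #1, 6.12 times in #2, 14.6 times in #3 and 118 times in WT. The subclones spread widely here, and the control again lay outside their range; these ratios are descriptions and were not tested.

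*Smad4* (chromosome 18, 69627757 to 69671199, minus strand) encodes the common partner Smad, through which both branches of the pathway act. It had 307 counts in #1, 370 in #2, 399 in #3 and 89 in WT, or 18.3, 20.9, 22.2 and 5.99 CPM. The subclones lay close together and far above the control, 3.06 to 3.71 times its level. The mean was 20.5 ± 1.99 CPM (SD, n = 3), the log2 fold change 1.77 (standard error 0.36) and the adjusted p-value 0.0278 in edgeR's quasi-likelihood test. Among the subclones *Smad4* varied little: its coefficient of variation was 9.71%, and 15.6% of all genes tested had a lower one. The call was lost without #3, where the adjusted p-value was 0.130 at a log2 fold change of 1.71. It was also lost in an unfiltered limma fit of log2(FPKM + 1), where the adjusted p-value was 0.0581. Those fits called 3.10% and 4.38% of all genes tested, where the reported fit called 13.8%. Over the 13 alternatives the log2 fold change of *Smad4* stayed between 1.48 and 1.86.

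The tested genes whose centred log2(CPM + 0.5) was nearest to that of *Smad4* over the 4 libraries, by Euclidean distance, were AABR07014239.1 at 0.025, *Rictor* at 0.0541 and *Ice1* at 0.0618. *Rictor*, a subunit of mTOR complex 2, had few reads, at 1.49, 1.87 and 1.89 CPM in #1, #2 and #3 and 0.202 in WT. *Ice1*, a component of the little elongation complex, was at 38.2, 41.5 and 44.8 CPM in the subclones and 12.1 in WT. The likeness rests on 4 libraries and on the added 0.5 CPM, which narrows the differences of genes with few reads: the fitted log2 fold change of *Rictor* was 3.07 and that of *Ice1* 1.78, where *Smad4* had 1.77.

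*Smad1* and *Smad5* encode the R-Smads of the BMP branch. *Smad1* (chromosome 19, 32188267 to 32248684, plus strand) was at 82.2 CPM in #1, 39.5 in #2, 64.0 in #3 and 29.0 in WT. Every subclone exceeded the control, #2 by 1.36 times and #1 by 2.83 times. On the log2 scale *Smad1* differed by 1.09, with a standard error of 0.44 and an adjusted p-value of 0.137. Without #2 it differed by 1.33 with an adjusted p-value of 0.00218, in a fit that called 37.9% of all genes tested. *Smad5* (chromosome 17, 8311796 to 8331032, minus strand) was at 22.7, 20.9 and 19.4 CPM in #1, #2 and #3 and 15.1 in WT. The subclones were nearly alike, differing by no more than counting noise could give (chi-square p = 0.115), and all lay above the control. *Smad5* differed by 0.47 on the log2 scale, with a standard error of 0.32 and an adjusted p-value of 0.324.

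*Smad2* and *Smad3* encode the R-Smads of the Nodal, activin and TGF-beta branch. *Smad2* (chromosome 18, 72550219 to 72612078, plus strand) had 286 counts in #1, 412 in #2, 401 in #3 and 398 in WT, or 17.1, 23.3, 22.3 and 26.8 CPM. On the CPM scale the control lay above every subclone, with #1 farthest from it. Its log2 fold change of -0.36 had a standard error of 0.32 and an adjusted p-value of 0.456. *Smad3* (chromosome 8, 68569530 to 68678349, minus strand) had 32, 91, 33 and 25 counts in the same order, or 1.91, 5.15, 1.84 and 1.68 CPM. Subclones #1 and #3 lay next to the control and #2 stood apart at 3.06 times its level. A log2 fold change of 0.82 with a standard error of 0.79 gave an adjusted p-value of 0.490, and without #2 it was the lowest of the alternatives at 0.15. The fibroblast marker sum was highest in #2 as well, and the part of these markers in the level of *Smad3* there was not tested.

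Per transcript length the 5 Smads together summed to 52.3 FPKM in #1, 41.1 in #2, 47.6 in #3 and 28.4 in WT. The control held the least, below every subclone. *Smad4* made up 17%, 24.6% and 22.3% of that sum in #1, #2 and #3 and 10.2% in WT. *Smad2* made up 11.2%, 19.3% and 15.8% and, in WT, 32%. For both genes the control's share lay outside the range of the subclones, whereas the share of *Smad1*, 52.4%, 31.8% and 44.0% against 33.8% in WT, overlapped with it. The R-Smads of the BMP branch (*Smad1* and *Smad5*) exceeded those of the other branch (*Smad2* and *Smad3*) by 5.98, 2.47 and 3.71 times in #1, #2 and #3 and by 1.71 times in WT, so the control was lowest and #1 highest. *Smad4* stood at 0.205, 0.327 and 0.287 of the 4 R-Smads together in the subclones and at 0.113 in WT. These are sums and ratios of deposited FPKM values, given without a test.

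**Figure D2:**
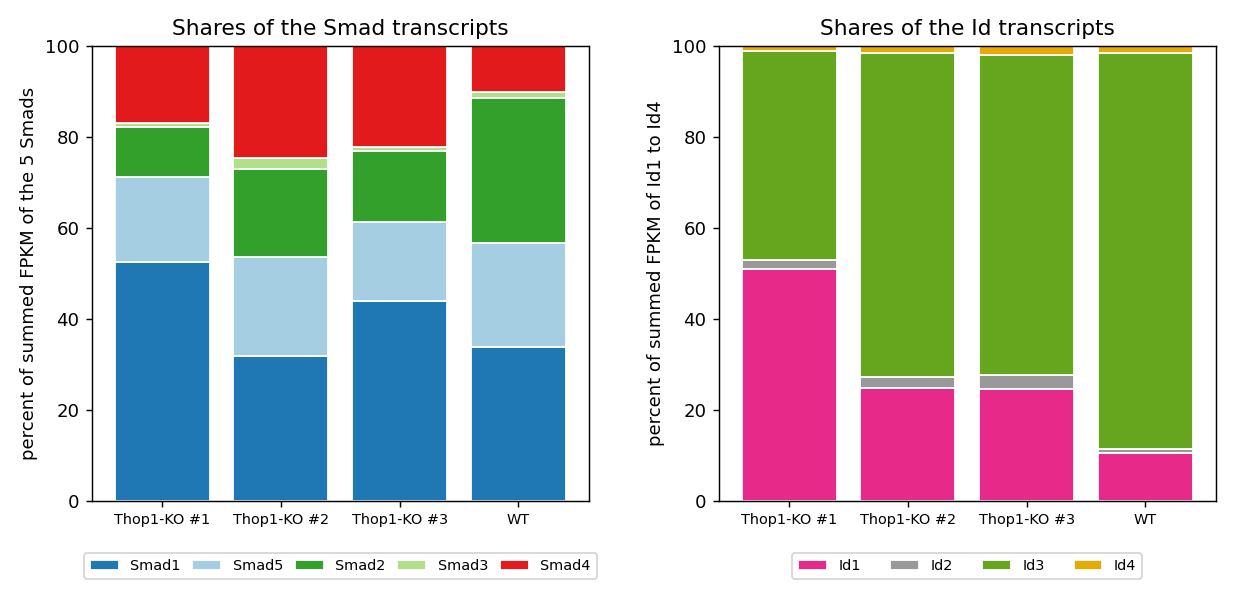
Percent of the summed FPKM taken by each of the 5 Smads (left) and by each of *Id1* to *Id4* (right), with 1 bar per library, so n = 1 per bar. The share of *Smad4* is 10.2% in WT and 17% to 24.6% in the subclones, and the share of *Id3* is 87.0% in WT and 45.9% to 71.2% in the subclones.

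The target genes *Id1* and *Id3* encode related inhibitors of DNA binding. *Id1* (chromosome 3, 148215540 to 148216718, plus strand) was at 67.0 CPM in #1, 56.0 in #2, 34.0 in #3 and 38.0 in WT. Subclones #1 and #2 lay above the control and #3 below it. With a log2 fold change of 0.46 and a standard error of 0.41, its adjusted p-value was 0.453. *Id3* (chromosome 5, 154489590 to 154491223, plus strand) had 1062 counts in #1, 2986 in #2, 1833 in #3 and 4905 in WT, or 63.3, 169, 102 and 330 CPM. Here the control lay above all subclones, which were at 0.192 to 0.512 times its level. The log2 fold change was -1.57 (standard error 0.46) with an adjusted p-value of 0.066, which became 0.038 without #1, 8.26e-05 without #2 and 0.144 without #3. Those 3 fits called 13.6%, 37.9% and 3.10% of all genes tested, where the reported fit called 13.8%. Subclone #2, with the highest fibroblast marker sum, was the nearest to the control, whose sum was the lowest; the part of these markers was not tested.

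In FPKM, *Id3* over *Id1* was 0.901 in #1, 2.87 in #2, 2.86 in #3 and 8.28 in WT. *Id1* and *Id3* were about equal in #1, #2 and #3 had nearly the same ratio, and the control had the highest. The remaining family members were minor: *Id2*, another ID gene, was at 3.88, 8.54 and 6.68 CPM in the subclones and 5.38 in WT, and *Id4* at 2.68, 5.83 and 4.90 against 9.42. The summed FPKM of *Id1* to *Id4* was 136, 233 and 141 in the subclones and 372 in WT, with the control highest. The promoter windows of *Id1* (chr3:161671314-161671613, plus strand) and *Id3* (chr5:153656041-153656340, plus strand) are shown side by side because both genes are BMP targets of 1 family, in which the control lay above every subclone for *Id3* and inside their range for *Id1*. The *Id1* window had 1 match to CAGAC, at bases 274 to 278 and so after the transcript start, and the *Id3* window 1 match to GGAGCC, at bases 149 to 154; neither held GTCTAGAC. Their GC contents were 55.7% and 58.0%.
Id1 promoter: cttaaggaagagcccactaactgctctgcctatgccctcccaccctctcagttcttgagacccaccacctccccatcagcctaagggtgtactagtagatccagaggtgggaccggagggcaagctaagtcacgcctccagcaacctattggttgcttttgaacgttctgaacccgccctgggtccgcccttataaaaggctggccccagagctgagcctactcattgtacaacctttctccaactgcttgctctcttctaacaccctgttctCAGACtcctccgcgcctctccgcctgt
Id3 promoter: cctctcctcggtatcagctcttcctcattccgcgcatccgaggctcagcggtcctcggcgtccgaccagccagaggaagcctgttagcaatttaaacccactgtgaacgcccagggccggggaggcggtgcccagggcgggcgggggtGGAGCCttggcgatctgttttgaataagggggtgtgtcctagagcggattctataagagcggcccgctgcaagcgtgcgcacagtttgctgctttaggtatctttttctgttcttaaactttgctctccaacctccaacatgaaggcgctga

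In the other windows, *Bmp4* had 2 matches to CAGAC and 2 to GGAGCC, *Nodal* 1 to each, and the *Smad2*, *Smad3* and *Smad5* windows held GC-rich matches, while none of the 5 motifs was found in these letters for *Smad1* and *Smad4*. Matches to different motifs did not overlap. A match is a description of the letters and says nothing of binding.

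**Figure D3:**
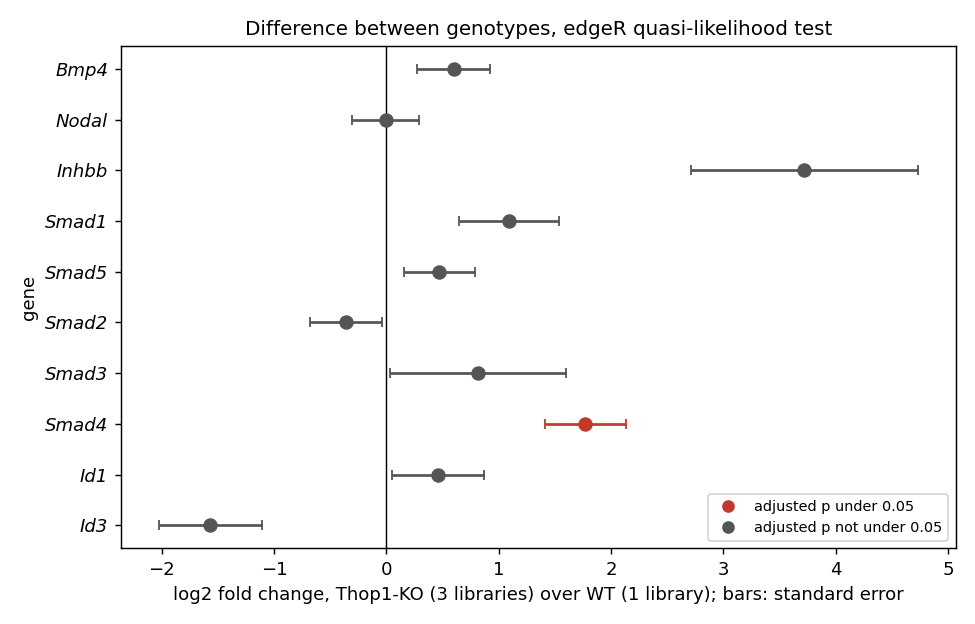
log2 fold change of each gene between the 3 Thop1-KO libraries and the 1 WT library, from edgeR's quasi-likelihood test, with a standard error derived from the test's F statistic. *Smad4* (1.77) is the gene with an adjusted p-value under 0.05; *Inhbb* lies farther from 0 at 3.72 with a standard error of 1.01, and *Id3* lies at -1.57 with one of 0.46.

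Since several of these calls changed when a subclone was left out, the spread among the subclones was described next. The coefficient of variation of CPM among the 3 subclones was 68.4% for *Inhbb*, 63.8% for *Smad3* and 47.9% for *Id3*, and 80.5% or more of all genes tested had a lower one. It was 34.6% for *Smad1*, 32.1% for *Id1*, 23.5% for *Bmp4*, 22.3% for *Nodal* and 16.1% for *Smad2*, where the median of all genes was 23.4%. *Smad4* and *Smad5*, at 9.71% and 7.71%, varied least. The counts of the subclones differed beyond counting noise in 9 of the 10 genes, with *Smad5* as the exception. An excess over counting noise was also present over the genes as a whole. Over 13466 to 13717 genes, chi-square per degree of freedom was 72.7 between #1 and #2, 24.3 between #1 and #3 and 47.8 between #2 and #3. The share of all genes that differed in this way was not computed.

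Subclone #2 was often at 1 end of this spread. Relative to the mean of #1 and #3, its CPM was 0.540 times for *Smad1*, 0.682 times for *Nodal* and 0.720 times for *Bmp4*, the lowest of the subclones in each. In *Inhbb* it was 2.76 times, in *Smad3* 2.75 times and in *Id3* 2.04 times that mean, the highest in each. *Smad2* was also highest in #2, at 1.18 times, while *Smad4*, *Smad5* and *Id1* in #2 lay between the other subclones. Subclone #2 was thus outside the other subclones in 7 of the 10 genes, beside 77.9% of all genes tested. Subclone #1 was outside them in 9 of the 10 genes, beside 71.7% of all genes, and #3 in 4, beside 49.9%.

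Levels of different genes were compared in FPKM. In Thop1-KO the order was *Id3* (109 ± 52.4 FPKM, SD, n = 3), *Nodal* (90.7 ± 20.4), *Id1* (53.9 ± 17.7), *Bmp4* (45.5 ± 10.9) and *Smad1* (20.5 ± 7.16), followed by *Smad4* (9.87 ± 0.874), *Smad5* (8.99 ± 0.776), *Smad2* (7.09 ± 1.11), *Inhbb* (3.39 ± 2.33) and *Smad3* (0.580 ± 0.372). Over the subclones the ranges of *Id3* and *Nodal*, *Nodal* and *Id1*, *Id1* and *Bmp4*, *Smad4* and *Smad5*, and *Smad2* and *Inhbb* overlapped, so these neighbours were not separated by their spread, whereas the other neighbours were. In WT the first 5 places were the same, with *Id3* at 324 FPKM, *Nodal* at 91.1, *Id1* at 39.1, *Bmp4* at 30.0 and *Smad1* at 9.60. Below them the order was *Smad2* at 9.11 FPKM, *Smad5* at 6.49, *Smad4* at 2.89, *Smad3* at 0.330 and *Inhbb* at 0.255. *Smad4* thus stood 6th in Thop1-KO and 8th in WT.

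The other genes of the pathway were read from a list of 104 genes, of which 102 were found by symbol and 73 passed the filter on low counts; 12 were at 0 counts in all 4 libraries. Of the 73, 12 were called, 11 higher and 1 lower in Thop1-KO, which is 16.4% beside the 13.8% of all genes. The median log2 fold change was 0.39, beside 0.06 for all genes tested. The control lay outside the range of the subclones in 67.1%, beside 75.7% of all genes. An unadjusted p-value under 0.05 was found for 21 of the 73 genes and for 5110 of the 15028 genes tested. The count was 23 without #2, where all 12 were called again and 37.9% of all genes were called, and 2 (*Ski* and *Ep300*) without #3, where 3.10% of all genes were called, so the number moved with that of all genes. Without #1 it was 10, with *Acvr1b*, *Nbl1* and *Ppm1a* no longer called and the target gene *Msx1* called.

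Among the ligands, *Bmp7*, a BMP, rose from 5 counts in WT to 121, 59 and 112 in #1, #2 and #3 (log2 fold change 4.03, adjusted p = 0.0244). *Tgfb2*, a TGF-beta ligand, was at 0 counts in WT and at 21, 31 and 23 in #1, #2 and #3, so it was at least 7.08-fold higher when 3 counts are taken as the floor of the control library (adjusted p = 0.0295). These ligands were scarce in comparison with the most abundant ones. *Gdf3*, a ligand of the TGF-beta family made by ESCs, was at 240, 275 and 280 CPM in the subclones and 335 in WT, and *Gdf15*, a stress-induced ligand, at 29.6, 15.6 and 29.4 against 42.5; both were below the control in all subclones without a call. *Tgfb1* (0.894, 6.0 and 3.40 CPM against 3.30) and *Gdf11* (8.11, 11.4 and 11.2 against 7.81) were not called.

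At the receptors 2 genes rose. They were 1 of 6 type I receptors tested (16.7%) and 1 of 5 type II receptors tested (20%), beside 13.8% of all genes called. *Acvr1b*, a type I receptor for activin and Nodal, had 1107, 930 and 1210 counts in #1, #2 and #3 and 379 in WT (log2 fold change 1.28, adjusted p = 0.0383). *Tgfbr2*, the type II receptor for TGF-beta, had 193, 151 and 234 counts and, in WT, 26 (log2 fold change 2.65, adjusted p = 0.021). In both genes the subclones lay above the control with no overlap, as they did in 5720 of the 15028 genes tested. Among the receptors with no call, *Bmpr1a*, a type I BMP receptor, was at 12.6, 36.8 and 20.9 CPM against 18, with #2 highest, and *Amhr2*, the receptor of anti-Müllerian hormone, at 30.8, 16.8 and 24.6 against 22.8. The co-receptors gave 0 calls of 5 tested by edgeR, beside 13.8% of all genes. Of the 5, 1 had an unadjusted p-value under 0.05, beside 5110 of the 15028 genes tested. DESeq2 called 1 of the 5, beside 21.3% of all genes. *Tdgf1*, the Nodal co-receptor Cripto, was at 673, 573 and 514 FPKM in the subclones and 596 in WT, the control lying inside their range. *Rgma*, a BMP co-receptor, was at 114, 83.3 and 90.7 CPM against 61, above the control in every subclone.

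Extracellular inhibitors had 1 call of 9 tested (11.1%) and ligand processing 1 of 6 (16.7%), beside 13.8% of all genes. *Nbl1*, which binds BMPs, was at 93 counts in WT and at 372, 271 and 324 in #1, #2 and #3 (log2 fold change 1.56, adjusted p = 0.0464). *Ltbp1*, which holds latent TGF-beta in the matrix, had 39, 87 and 78 counts and, in WT, 5 (log2 fold change 3.49, adjusted p = 0.036). Both lay above the control in every subclone, as did 5720 of the 15028 genes tested. *Ltbp1* and *Tgfb2* had the order of libraries of the fibroblast marker sum, with #2 highest, then #3, #1 and WT. For *Tgfb2*, #1 and #3 were nearly equal, at 1.25 and 1.28 CPM. The part of the fibroblast markers was not tested. *Lefty1*, a Nodal antagonist and Nodal target, was at 590, 997 and 914 CPM against 667, so the control lay among the subclones, and *Fstl3*, an activin binding protein, at 30.1, 12.3 and 16.2 against 12.0. Of the convertases that cleave Nodal and BMP precursors, *Furin* was at 328, 198 and 348 CPM against 139 (adjusted p = 0.0975) and *Pcsk6* at 95.6, 105 and 112 against 103.

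Of 19 Smad partners and regulators tested, 6 were called (31.6%, beside 13.8% of all genes), 5 of them higher and 1 lower. The median log2 fold change of the 19 was -0.03, and 10 of them had a negative one. *Ski*, a corepressor that binds SMAD2, SMAD3 and SMAD4, had 1679, 1216 and 1793 counts in #1, #2 and #3 and 118 in WT (log2 fold change 3.49, adjusted p = 0.00705), and it was called under all 13 alternatives. *Ep300*, a histone acetyltransferase that Smads recruit, had 173, 187 and 165 counts and, in WT, 8 (log2 fold change 4.20, adjusted p = 0.00803). *Trim33*, which binds SMAD2 and SMAD3 and can ubiquitylate SMAD4, had 78, 92 and 118 counts against 11 (log2 fold change 2.88, adjusted p = 0.0254). In these genes the groups lay far apart and the control had few reads in *Ep300* and *Trim33*. *Stub1*, a ubiquitin ligase with Smads among its substrates, had 3233, 2868 and 3201 counts against 1019 (log2 fold change 1.37, adjusted p = 0.0221). *Ppm1a*, a phosphatase of R-Smads, had 590, 592 and 680 counts against 220 (log2 fold change 1.26, adjusted p = 0.0395). *Larp7*, a 7SK RNA binding protein, was lower, with 157, 296 and 248 counts against 743 (log2 fold change -1.91, adjusted p = 0.0221). *Ywhae*, an abundant member of this role, lay below the control in every subclone without a call (774, 763 and 679 CPM against 1196, adjusted p = 0.0615). The called genes that were higher thus include a corepressor (*Ski*), a phosphatase (*Ppm1a*), ubiquitin ligases (*Trim33* and *Stub1*) and a coactivator (*Ep300*), while *Larp7* was lower.

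**Figure D4:**
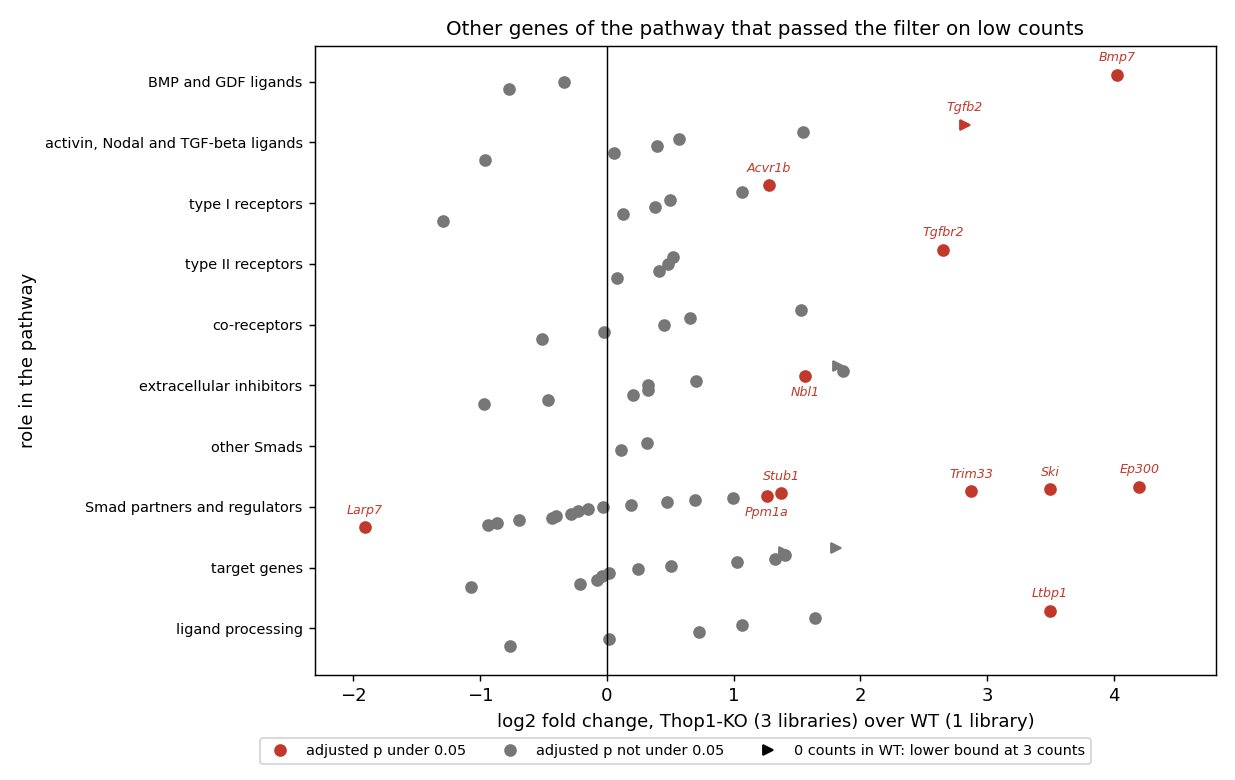
log2 fold change (Thop1-KO, 3 libraries, over WT, 1 library) of the 73 tested genes of the pathway list, in rows by role; triangles mark genes at 0 counts in WT, drawn at the lower bound that 3 counts give. The 12 called genes are named, with 11 to the right of 0 and *Larp7* at -1.91.

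Of the inhibitory Smads, *Smad7*, itself a target of both branches, was at 117, 116 and 136 CPM in the subclones and 98.7 in WT, and *Smad6* at 3.46, 5.26 and 2.84 against 3.57; *Smad9*, the R-Smad gene next to *Smad1* and *Smad5* in function, was at 0 counts in every library, which allows up to 3 counts in a library as a one-sided limit at 95% confidence. None of the 12 tested target genes beside *Id1* and *Id3* was called by edgeR, where 13.8% of all genes were called. An unadjusted p-value under 0.05 was found for 4 of the 12 and for 5110 of the 15028 genes tested. DESeq2 called 3 of the 12, where it called 21.3% of all genes. The most abundant of the 12 were *Cdkn1a*, a cell cycle inhibitor, at 169, 53.1 and 77.8 CPM against 40.0, and *Tgfbi*, a matrix protein induced by TGF-beta, at 95.0, 90.6 and 74.5 against 42.6 (adjusted p = 0.0568). In both genes all subclones lay above the control, as they did in 5720 of the 15028 genes tested. In *Cdkn1a* #1 stood apart from the other subclones.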

How the data were processed

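Poly(A) RNA libraries were made by the authors from 1 WT culture and 3 Thop1-KO subclones, and reads were cleaned with the FASTX toolkit. The submitters' processing notes list HISAT2 2.0.5 and featureCounts 1.5.0-p3; the genome build, the annotation and any use of strand are not given in the sources used here. The authors deposited raw counts per gene and FPKM values, and each FPKM is the gene's count over its length and over a constant for the library. No member overlaps another gene of the table. The test was edgeR 4.0.16 (R 4.3.3): filterByExpr with a minimum count of 10, TMM, the quasi-likelihood test of Thop1-KO against WT and Benjamini-Hochberg adjustment over all 15028 genes tested, with a call at an adjusted p-value under 0.05. Each standard error was derived as the size of the log2 fold change over the square root of that test's F statistic. The script was tested on simulated data. Depth was 15405499 to 17936544 counts, and intervals and floors cover counting error only. No duplicated library was found. The members, the pathway list, the markers and the motifs were chosen with earlier results of these data known.

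The genes named are *Thop1*, the members, in each role the called genes and the 2 tested genes with the highest mean FPKM, the 3 genes nearest to each called member, and *Id2*, *Id4*, *Smad9*, *Msx1* and single markers, named after their values were seen. An item that this rule selects is not reported here. Alternatives were other scalings in edgeR (library size only, DESeq2's size factors, upper quartile), DESeq2 1.42.0, no filter, at least 10 counts in every library, limma 3.58.1 on log2(FPKM + 1) with and without a filter and on log2(FPKM + 0.1), a loess correction for gene length (span 0.3), a fold of at least 2, and leaving out each subclone. GC content was not corrected for, as no genome was at hand. The library totals, FPKM sums and motif counts used Python 3.11.15 with pandas 2.3.3.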

Additional observations from a re-analysis of the deposited data

How the results depend on the processing

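Of the 10 genes, 1 was called in the reported fit; it was 3 with DESeq2 and 3 without a filter on low counts (*Id3*, *Inhbb* and *Smad4* in each), 0 in an unfiltered limma fit of log2(FPKM + 1), and between 0 (without #3) and 5 (without #2: *Bmp4*, *Id3*, *Inhbb*, *Smad1* and *Smad4*) with a subclone left out. The 12 calls of the pathway list became 7 with limma on log2(FPKM + 1), 3 with it unfiltered, and between 2 (without #3) and 23 (without #2) with a subclone left out. Over all genes the calls moved from 2072 to 872 in the unfiltered limma fit, 5572 without #2 and 457 without #3. The share of calls that were higher in Thop1-KO, 62.5% in the reported fit, was 51.8% with the length correction, 38.1% in unfiltered limma and 77.5% without #3. The median log2 fold change of all genes, 0.06 in the reported fit, was 0.13 with library size only, 0.17 with DESeq2, 0.19 without a filter and -0.0998 with the length correction. Of 130 values for the members, 115 kept their direction and side of the threshold, 10 gained a call, 2 lost it (*Smad4*) and 3 turned sign, all in *Nodal*: 0.0533 with library size only, 0.019 without a filter and 0.157 without #2. Of the values for the other named genes, 335 kept both, 34 lost a call, 11 gained one and 19 turned sign, none of them in a called gene. With a subclone left out, *Nodal* ranged from -0.152 to 0.157. The others are, on the log2 scale, *Tgfb1* (-0.0156 with upper quartile, -0.0794 in both limma fits on FPKM + 1, -0.269 on FPKM + 0.1, -0.183 with length, -0.611 to 0.52 with a subclone left out), *Tdgf1* (0.0455 with library size only, 0.00284 without a filter, 0.474 with length, -0.115 to 0.0591 with a subclone left out), *Pcsk6* (-0.0819 with upper quartile, -0.358 with length, -0.037 to 0.083 with a subclone left out), *Amhr2* (-0.0332 with upper quartile, -0.145 with length, -0.132 to 0.28 with a subclone left out), *Smad6* (-0.18 to 0.29 with a subclone left out), *Smad7* (-0.0591 with length) and *Bmpr1a* (-0.0987 to 0.693 with a subclone left out). Where a subclone was left out fewer libraries were fitted; otherwise the cause was not tested. No paired analysis was possible because the control has 1 library and no replicate number.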
